A study of Mus musculus with 8 samples.

Results

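The 8 genes described here, Actb, Hprt, Tbp, Ppia, Ywhaz, Gusb, Polr2a and Rplp0, are common reference genes for quantitative PCR, chosen by name, with no rule on their measured values. All 8 were found among the 24460 genes counted, and all 8 passed the filter on low counts that left 14296 genes to test. The RNA came from wild type mouse embryonic fibroblasts (MEFs) kept in medium without RHPS4 (0 µM, 3 libraries) or with it at 2 µM (3) or 10 µM (2). This compound binds G-quadruplexes, the folded structures that guanine-rich nucleic acids can form. The labels give 2 possible lengths of treatment for the study as a whole and do not say which applied to these libraries, nor whether the libraries of a dose came from separate cultures, so the p-values measure the spread between these libraries, which may be technical. Total RNA was depleted of nuclear ribosomal RNA, converted to strand-specific libraries and sequenced. The question asked of the reference genes was how far their level, their spread and their change with dose depended on the gene and on the way the libraries were scaled.

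A reference gene is the denominator of a relative PCR measurement. The level of a target is divided by that of the reference in the same sample, so any change of the reference enters the result with its sign turned. Genes used for this purpose serve functions that every cell needs, among them the cytoskeleton, protein synthesis, transcription and nucleotide recycling, and are chosen for a level that stays even across samples. No such gene is stable in every setting, and the usual practice is to compare several candidates with each other before one is trusted. In bulk RNA, fewer cells of one kind and less RNA per cell cannot be told apart.

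The study names a pair of references for its quantitative reverse transcription PCR of mitochondrial transcripts, B2m in its methods and GAPDH in a legend. B2m encodes the beta-2 microglobulin light chain of MHC class I, and its assay is shown because it fixes which part of the B2m mRNA stood for the whole. The 4 oligonucleotides, 5′ to 3′, are:
reverse transcription primer: ccgttcttcagcatttggattt
primer 1: acgtagcagttcagtatgttcg
primer 2: ggtctttctggtgcttgtct
probe: ttcaagtatactcacgccacccacc
Matched to the GENCODE annotation of GRCm38, the assembly that mm10 names, primer 2 lay in exon 1 of B2m on the sense strand (chr2:122147758-122147777). The probe (chr2:122150885-122150909) was sense, whereas primer 1 (chr2:122150924-122150945) and the reverse transcription primer (chr2:122150972-122150993) were antisense, and all 3 lay in exon 2. Each of the 4 lay wholly in coding sequence, and 0 other genes in the annotation held an exact match to any of them. Neither B2m nor Gapdh is one of the 8 genes, and both are set beside them below.

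Between 10455965 and 26688121 counts were assigned to genes in a library. Transcripts of mitochondrial DNA (mtDNA) took 13.7% ± 0.626 (SD, n = 3) of all counts at 0 µM, 7.97% ± 0.488 (n = 3) at 2 µM and 5.82% ± 0.701 (n = 2) at 10 µM. Levels are given as CPM, the counts of a gene per 1000000 counts, either of the raw library total or of a total corrected by TMM, a method that sets the bulk of the genes level between libraries. The TMM correction factors lay between 0.923 and 0.960 at 0 µM and between 1.09 and 1.10 at 10 µM. The median log2 fold change of all tested genes was therefore higher by 0.08 at 2 µM and by 0.21 at 10 µM, both against 0 µM, when raw totals were used. Of 442 genes called at 10 µM, 279 were higher with TMM, and of 904 called with raw totals 836 were higher. The 11 fibroblast markers summed to between 12466 and 14508 CPM per library. Epithelial (4 genes), endothelial (3), leukocyte (3) and skeletal muscle (4) markers each summed to between 1.54 and 8.84 CPM. No marker of any list was at 0 in every library of a dose. Among the fibroblast markers, Lum (0.488 to 1.38 CPM) and Thy1 (5.10 to 7.77) were far lower than the rest.

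A pair of libraries stood apart, the first 0 µM and the first 2 µM replicates. Across 12736 genes with a principal transcript, the deviation of a gene's log2 CPM from its dose mean was lower the longer the transcript in these libraries (Spearman's rho −0.329 and −0.247), whereas rho was between 0.034 and 0.286 in the other 0 and 2 µM libraries and 0.151 and −0.151 in the 10 µM pair. The correlation is across genes, which are not independent replicates, and is given as a description. They were also the libraries with the lowest totals of their dose, and the change of Polr2a, the spread, M and the relation to depth are given below with and without them.

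Per kilobase of transcript, the 8 genes spanned a wide range of levels. With TMM scaling the mean level over 8 libraries was 3137 CPM per kilobase for Actb, 1526 for Rplp0, 955 for Ppia, 185 for Ywhaz, 86.4 for Hprt, 34.6 for Polr2a, 27.0 for Tbp and 17.7 for Gusb. Neighbours in this order were separate in every library except around Polr2a. Its per-kilobase level ran from 19.0 to 51.8 and overlapped that of Tbp (24.4 to 32.2) and that of Gusb (14.8 to 20.4). The B2m mRNA, at 720.3 CPM per kilobase, lay between Ppia and Ywhaz. The value for Tbp depends on the transcript: a length of 1891 bases was used, and another principal transcript of 12794 bases would lower it. The lowest count of any of the 8 genes in any library was 476, for Tbp, and the highest was 147658, for Actb, so all were far above the floor of 3 counts per library (at most 0.287 CPM).

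Several of these mRNAs share sequence with copies elsewhere in the genome, which bears on counts of uniquely mapped fragments. Of the 75-base stretches of the principal transcript, 51.0% in Ppia were also found in transcripts of 22 other genes, 29.0% in Ywhaz (3 other genes), 27.4% in Rplp0 (5) and 2.60% in Actb (4), and 0% in Hprt, Tbp, Gusb and Polr2a. The levels of Ppia, Ywhaz and Rplp0 are uncertain for this reason, as are those of Gapdh (88.2%) and Actg1 (58.4%) below. The reads were paired, so these shares do not give the size of any loss of counts, which was not measured.

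Actb (chr5:142903115-142906754, minus strand) encodes the cytoplasmic beta-actin of the cell's microfilaments. Its level was 6622, 5870.0 and 5850.4 CPM at 0 µM, 6919, 6477 and 6649 at 2 µM, with 4764 and 5028 at 10 µM, with TMM scaling as in all levels that follow. Both 10 µM libraries lay below every other library, and the 0 and 2 µM libraries overlapped. The log2 fold change was 0.13 (standard error 0.0888, adjusted p = 0.433) at 2 µM and −0.32 (0.1001, adjusted p = 0.0555) at 10 µM against 0 µM. Between 10 and 2 µM it was −0.45 (0.101, adjusted p = 0.00879), which passed the threshold on p and not that on size. The quasi-likelihood test of edgeR gave all adjusted p values, by the Benjamini-Hochberg method over the 14296 genes. To be called, a gene had to change by more than 1.5-fold with an adjusted p below 0.01.

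Rplp0 and Ppia belong to protein synthesis and protein folding. Rplp0 (chr5:115559467-115563727, plus strand) encodes the acidic stalk protein P0 of the large ribosomal subunit, and its level was 2289, 1845 and 1828 CPM at 0 µM, 2206, 2135 and 2092 at 2 µM, with 1871 and 2316 at 10 µM. Ppia (chr11:6415443-6419817, plus strand) encodes cyclophilin A, a peptidyl-prolyl isomerase, and its level was 1181, 947 and 978 CPM at 0 µM, 1232, 1177 and 1167 at 2 µM, with 1055 and 1204 at 10 µM. In both genes the first 0 µM library was the highest of its dose, the 2 µM libraries were close to each other, and the doses overlapped. The log2 fold changes of Rplp0 were 0.11 (standard error 0.109) at 2 µM and 0.08 (0.121) at 10 µM, and those of Ppia were 0.20 (0.0950) and 0.13 (0.106), all 4 with an adjusted p of 0.245 or more.

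Tbp and Polr2a belong to the machinery of transcription. Tbp (chr17:15499888-15528379, plus strand) encodes the TATA-binding protein, and its level was 49.3, 46.2 and 47.4 CPM at 0 µM, 61.0, 47.8 and 55.4 at 2 µM, with 48.7 and 52.1 at 10 µM. The 0 µM libraries of Tbp were the closest of any of the 8 genes relative to their mean (47.6 ± 1.57 CPM, SD, n = 3), and the 2 µM libraries spread more widely around 54.7 ± 6.59. Its log2 fold changes were 0.20 (standard error 0.0904, adjusted p = 0.227) at 2 µM and 0.08 (0.101, adjusted p = 0.623) at 10 µM. Polr2a (chr11:69733997-69758637, minus strand) encodes the largest subunit of RNA polymerase II, and its level was 169.8, 329 and 349 CPM at 0 µM, 128, 224 and 286 at 2 µM, with 197 and 182 at 10 µM. At 0 and 2 µM its first library was the lowest by far, and all 3 doses overlapped. Its log2 fold changes were −0.41 (standard error 0.279, adjusted p = 0.421) and −0.58 (0.317, adjusted p = 0.245).

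Hprt and Gusb encode metabolic enzymes, of purine salvage and of lysosomal glycosaminoglycan breakdown. Hprt (chrX:52988137-53021659, plus strand) stood at 122, 93.6 and 106 CPM at 0 µM, 127, 113 and 121 at 2 µM, with 107 and 101 at 10 µM. Gusb (chr5:129989011-130003049, minus strand), the beta-glucuronidase, stood at 52.7, 39.7 and 47.7 CPM at 0 µM, 45.9, 44.99 and 51.3 at 2 µM, with 43.8 and 54.9 at 10 µM. The libraries of all 3 doses overlapped in Gusb, and in Hprt only the 10 and 2 µM libraries were separate. The log2 fold changes of Hprt were 0.17 (standard error 0.0945) and −0.04 (0.106), and those of Gusb 0.03 (0.117) and 0.08 (0.130), all 4 with an adjusted p of 0.313 or more.

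Ywhaz (chr15:36770770-36796929, minus strand) encodes 14-3-3 zeta, an adaptor that binds phosphorylated proteins. Its level was 414, 426 and 474 CPM at 0 µM, 344, 357 and 444 at 2 µM, with 322 and 353 at 10 µM. Both 10 µM libraries lay below every 0 µM library, and replicate 3 at 2 µM lay within the range of the 0 µM libraries. The log2 fold change was −0.20 (standard error 0.101, adjusted p = 0.289) at 2 µM and −0.38 (0.114, adjusted p = 0.05004) at 10 µM, where its 95% interval of −0.67 to −0.08 reached past a 1.5-fold decrease.

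**Figure D1:**
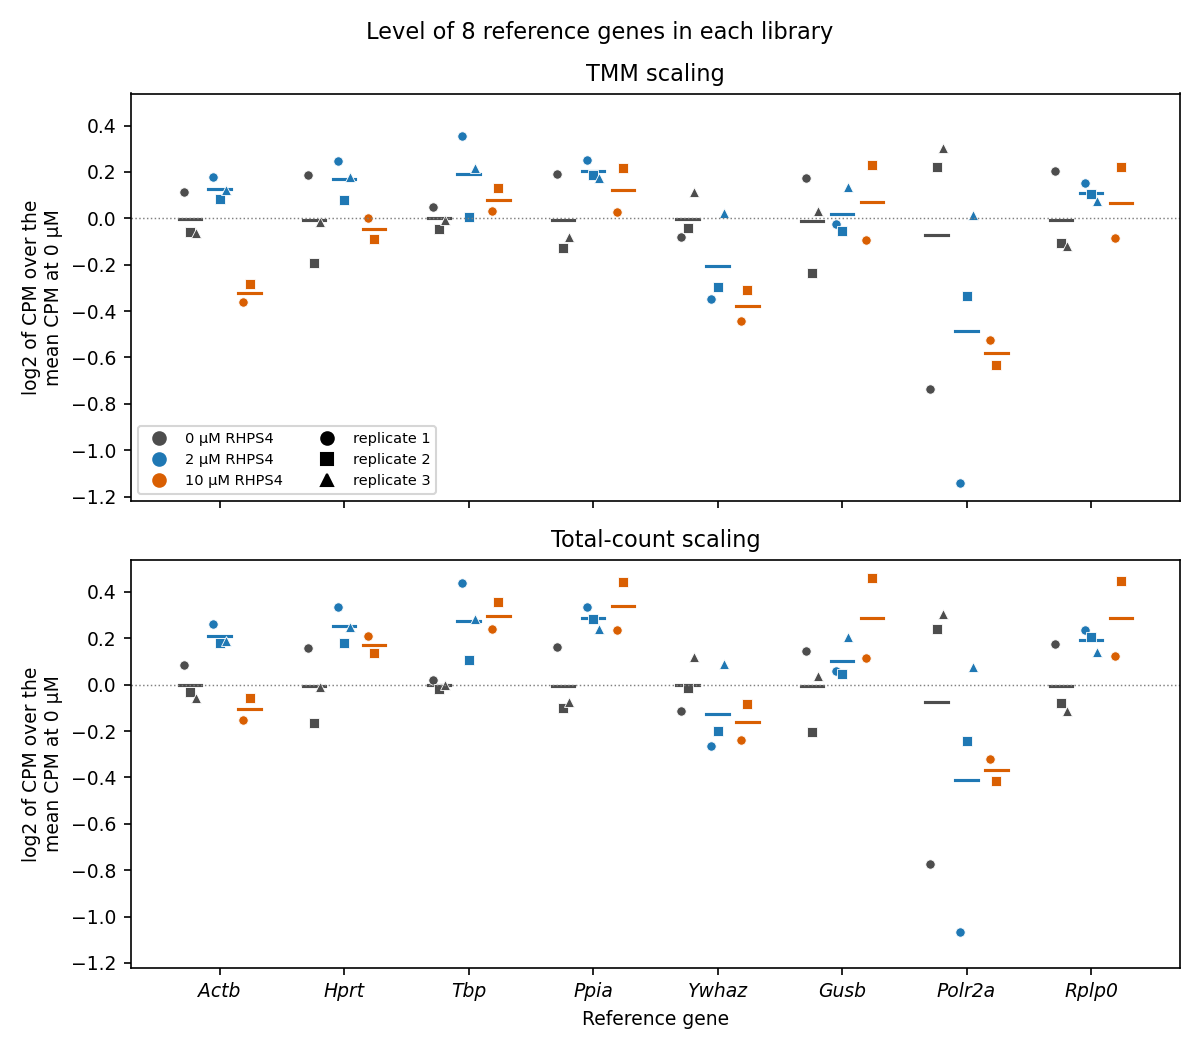
Level of each reference gene in each library, as log2 of its CPM over the mean CPM at 0 µM, with TMM (upper) and total-count scaling (lower). Points are single libraries, shaped by replicate number and coloured by dose, and bars are the means of the log2 values of a dose; the 10 µM points of Actb and Ywhaz lie below the 0 µM points with TMM and overlap them with total counts, and Polr2a is the most spread.

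None of the 8 genes was called in any of the 3 comparisons with edgeR, and DESeq2 called 0 of 8 in each as well. Of all tested genes, 0.497% were called at 2 µM and 3.09% at 10 µM against 0 µM, and 5.51% between 10 and 2 µM, so that 0 of 8 is near what these shares give. At an unadjusted p under 0.05 the count was 1 of 8 at 2 µM (Tbp; 21.3% of all tested genes), 2 of 8 at 10 µM (Actb and Ywhaz; 29.4%) and 1 of 8 between 10 and 2 µM (Actb; 36.5%). At an adjusted p under 0.05 with no minimum fold it was 0 of 8 at 2 µM (4.16% of all tested genes), 0 of 8 at 10 µM (13.9%) and 1 of 8 between 10 and 2 µM (Actb; 23.4%) with edgeR. DESeq2 put Actb (adjusted p = 0.00338) and Ywhaz (0.00969) past it at 10 µM, and Actb (1.02e-05) between 10 and 2 µM. The share of all tested genes past it with DESeq2 is not given here, so nothing is read from these counts. Groups did not overlap in 0, 2 and 2 of the 8 genes in the 3 comparisons, against 25.7%, 42.9% and 51.8% of all tested genes. Both doses are set against the same 0 µM libraries, so their values are not independent of each other.

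A p that misses a threshold does not show that a gene was stable, and the intervals say more. The 95% interval of the log2 fold change lay wholly within a 1.5-fold change (±0.585) for 7 of the 8 genes at 2 µM, for 6 at 10 µM and for 6 between 10 and 2 µM. Over all tested genes the shares were 60.3%, 50.3% and 44.8%. Polr2a was outside in every comparison, with intervals of −1.13 to 0.30 at 2 µM and −1.40 to 0.23 at 10 µM. Ywhaz was outside at 10 µM, and Actb between 10 and 2 µM (−0.71 to −0.19). At 10 µM against 0 µM Actb was only just inside, with an interval of −0.578 to −0.063 that did not reach 0. Without the second 10 µM library, which leaves 1 library at that dose, only 3 genes stayed inside between 10 and 2 µM.

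**Figure D2:**
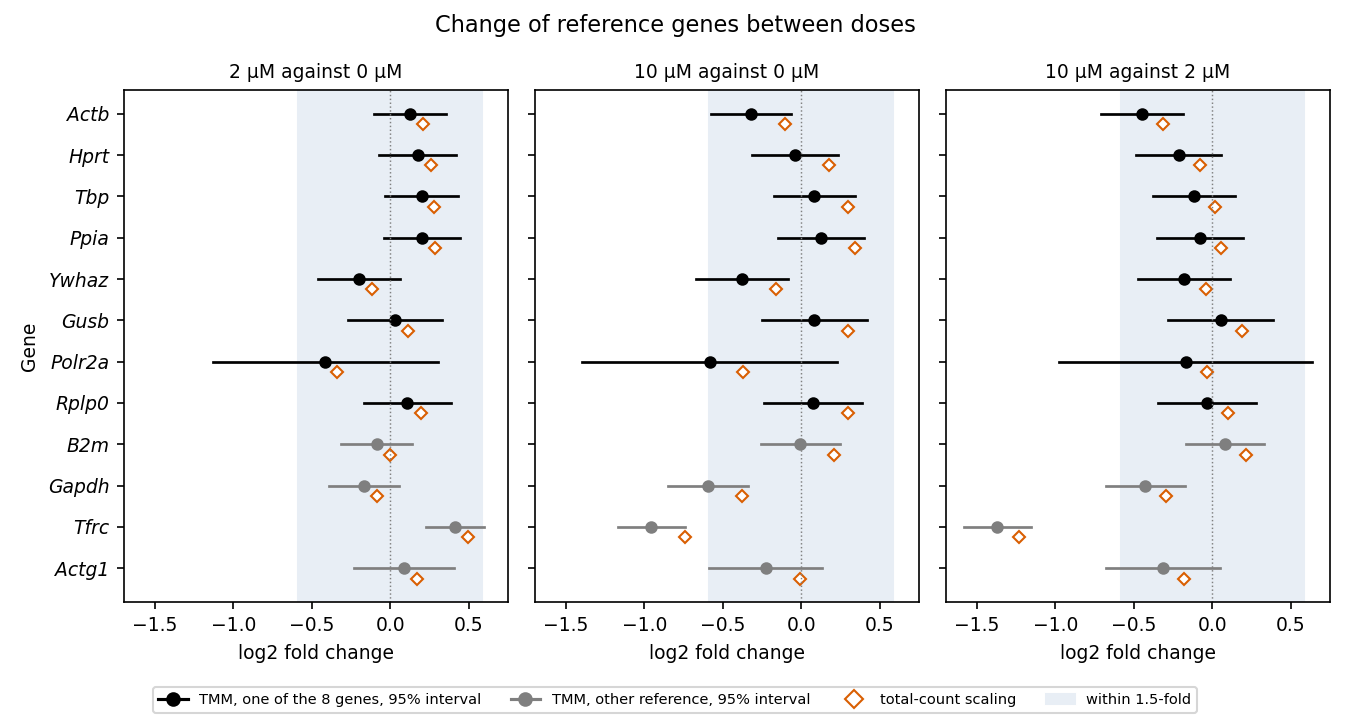
Log2 fold change of the 8 genes (black) and of 4 other references (grey) between doses with TMM scaling, with 95% intervals as lines, and the same change with total-count scaling (orange diamonds). The shaded band is a change within 1.5-fold; Polr2a has the widest interval of the 12 genes in each panel, Gapdh and Tfrc lie lowest at 10 µM against 0 µM, and the diamonds lie to the right of the points.

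The scaling moved every one of these changes by about as much as it moved the median gene. With total-count scaling the log2 fold changes at 10 µM were −0.10 for Actb (adjusted p = 0.418), −0.16 for Ywhaz (0.306), −0.37 for Polr2a (0.408), 0.30 for Tbp (0.0398), 0.34 for Ppia (0.0242), 0.29 for Rplp0 (0.0762), 0.30 for Gusb (0.08999) and 0.18 for Hprt (0.185). The separation of Actb and Ywhaz at 10 µM was thus lost, while Tbp and Ppia passed an adjusted p under 0.05, as did 28.5% of all tested genes with this scaling. At 2 µM 0 of the 8 genes passed it (9.54% of all tested genes), and between 10 and 2 µM 1 did (Actb; 25.2%). Raw totals also made separations that TMM did not show. Against 0 µM, every library was then higher at 2 µM for Actb, Hprt, Tbp and Ppia, and at 10 µM for Tbp and Ppia. The share of all tested genes separated with this scaling is not given here, so nothing is read from these separations. Hprt was lower at 10 µM with TMM and higher with total counts, and the difference between 10 and 2 µM turned from negative to positive for Ppia (0.06), Rplp0 (0.10) and Tbp (0.02). No member was called under total-count scaling in any comparison, where 0.462%, 6.32% and 7.01% of all tested genes were called.

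Rplp0, Ppia and Tbp had the smallest spread over all 8 libraries with TMM scaling. The coefficient of variation (CV, SD over mean) with TMM scaling was 9.66% for Rplp0, 9.73% for Ppia, 9.77% for Tbp, 10.4% for Hprt, 10.6% for Gusb, 13.1% for Actb, 13.99% for Ywhaz and 34.2% for Polr2a. Of all tested genes, 24.1% had a lower CV than Rplp0, 46.9% a lower CV than Ywhaz, and 87.7% a lower CV than Polr2a. The median over the 8 genes was 10.5%, against 14.8% over all tested genes and 10.3% over the 4318 tested genes with a mean of at least 50 CPM. Without the first 0 and 2 µM libraries the order changed: the CV was then lowest for Tbp (6.98%) and Hprt (8.99%), followed by Rplp0 (9.83%) and Ppia (10.1%), and highest for Polr2a (26.9%). B2m had a CV of 7.49% over 8 libraries, lower than any of the 8 and higher than 11.9% of all tested genes.

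With total-count scaling the order of spread changed. Ywhaz then had the lowest CV (10.1%), followed by Actb (10.3%) and Hprt (10.4%), and Tbp, Rplp0, Ppia and Gusb came after them at 12.3%, 12.4%, 12.8% and 13.2%. Polr2a was the most spread under both, with 31.4% here, and its highest library stood 2.72-fold above its lowest, against 1.27-fold to 1.47-fold in the other 7 genes with TMM scaling.

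**Figure D3:**
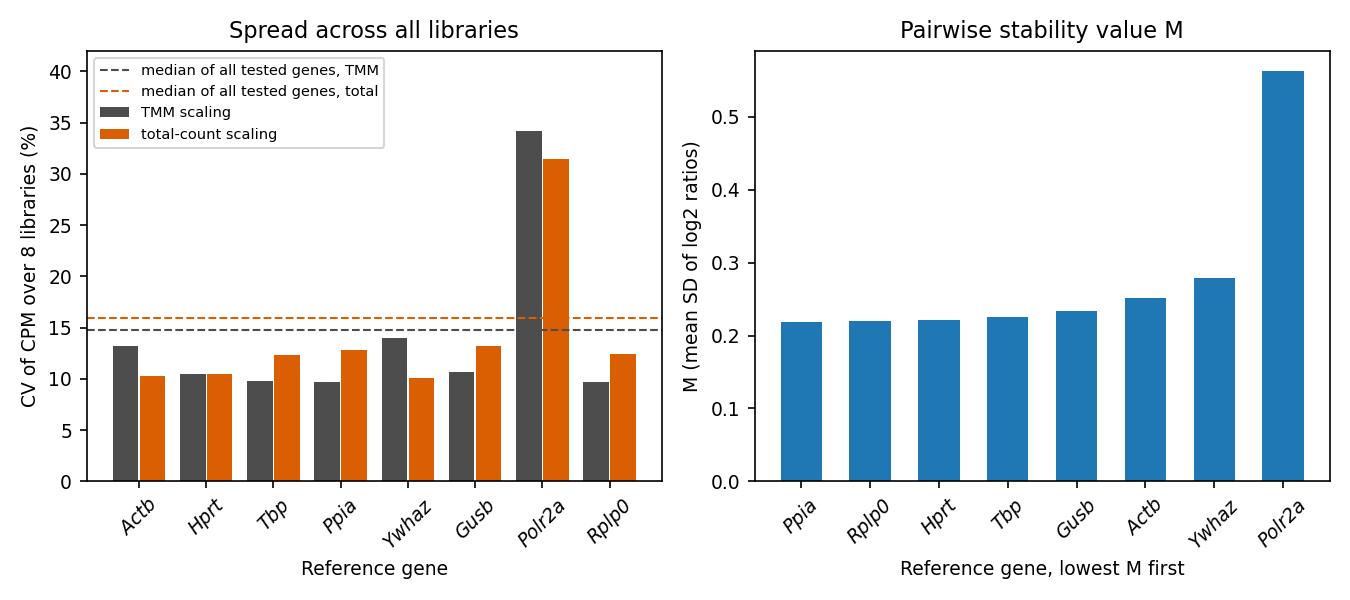
Left, CV of each reference gene over 8 libraries in percent with TMM (grey) and total-count scaling (orange), with the medians of all tested genes as dashed lines. Right, the pairwise value M of each gene, lowest first; Polr2a stands above the other 7 genes in both panels, and Actb and Ywhaz have the lower CV with total counts.

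Ratios between 2 genes of one library do not depend on the scaling at all. The geNorm value M of a gene is the mean, over its partners, of the SD of the log2 ratio across libraries, so a low M marks a gene that keeps in step with the others. M was 0.218 for Ppia, 0.220 for Rplp0, 0.222 for Hprt, 0.226 for Tbp, 0.233 for Gusb, 0.252 for Actb, 0.279 for Ywhaz and 0.563 for Polr2a. When the gene with the highest M was left out at each step, the genes went in the order Polr2a, Ywhaz, Actb, Gusb, Hprt and Tbp, which left Ppia and Rplp0. The log2 ratio of that pair had an SD of 0.0561 over the 8 libraries, and averaged −0.94 at 0 µM, −0.85 at 2 µM and −0.89 at 10 µM for Ppia over Rplp0. A small SD of a ratio shows that 2 genes moved together, not that either was even. With TMM scaling both genes were lower in libraries with a larger total (r = −0.861 and −0.850, given below), which their ratio does not show. The widest pair was Ppia and Polr2a, with an SD of 0.622. Without the first 0 and 2 µM libraries Tbp had the lowest M (0.186), and Ppia and Rplp0 stood at 0.209 and 0.2098.

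Each gene was also set against the geometric mean of the other 7 in its own library. Relative to them Ywhaz was lower in every treated library, by −0.27 on the log2 scale at 2 µM (pooled SD 0.120), where the exact permutation test, which was two-sided, gave p = 0.1, the lowest value that 3 libraries against 3 can reach, and by −0.30 at 10 µM (pooled SD 0.0903, exact p = 0.2, the lowest that 3 against 2 can reach). Actb was lower at 10 µM by −0.24 (pooled SD 0.0884) and Ppia and Tbp were higher there by 0.27 (0.143) and 0.22 (0.0342), each with an exact permutation p of 0.2 and every library on its side. Polr2a differed by −0.51 and −0.46, within its pooled SD of 0.645 and 0.569. Adjusted over the 16 comparisons, the smallest p was 0.457, so none passed, and this design could not have passed.

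The level of Polr2a followed the size of the library. Its log2 CPM rose with the log2 total count over the 8 libraries (Pearson's r = 0.889, exact permutation p = 0.0031; Spearman's rho = 0.905, exact permutation p = 0.0046), and within each of the 3 doses the libraries stood in the order of their totals. Adjusted over the 8 genes tested this way the p values were 0.0248 and 0.0365. Without the 2 libraries farthest from the median total, replicates 2 and 3 at 0 µM, r was 0.746 (n = 6). Ppia and Rplp0 were related to the total in the opposite direction (r = −0.861 and −0.850, exact permutation p = 0.0096 and 0.0089, rho −0.833 and exact permutation p = 0.0154 in both, adjusted p = 0.0256 for r and 0.0410 for rho in both), with r of −0.534 and −0.660 without the 2 farthest libraries. In the other 5 genes r lay between −0.552 and 0.649, with adjusted exact permutation p values of 0.173 or more. Without the first 0 and 2 µM libraries (n = 6) r was 0.891 for Polr2a, −0.834 for Ppia and −0.780 for Rplp0, and none of the 8 relations passed after adjustment (exact permutation test, smallest adjusted p = 0.15). A dose holds at most 3 libraries, too few for a correlation within a dose. The 2 largest totals were both at 0 µM and the permutations ignored dose, so dose and depth are mixed in these p values.

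**Figure D4:**
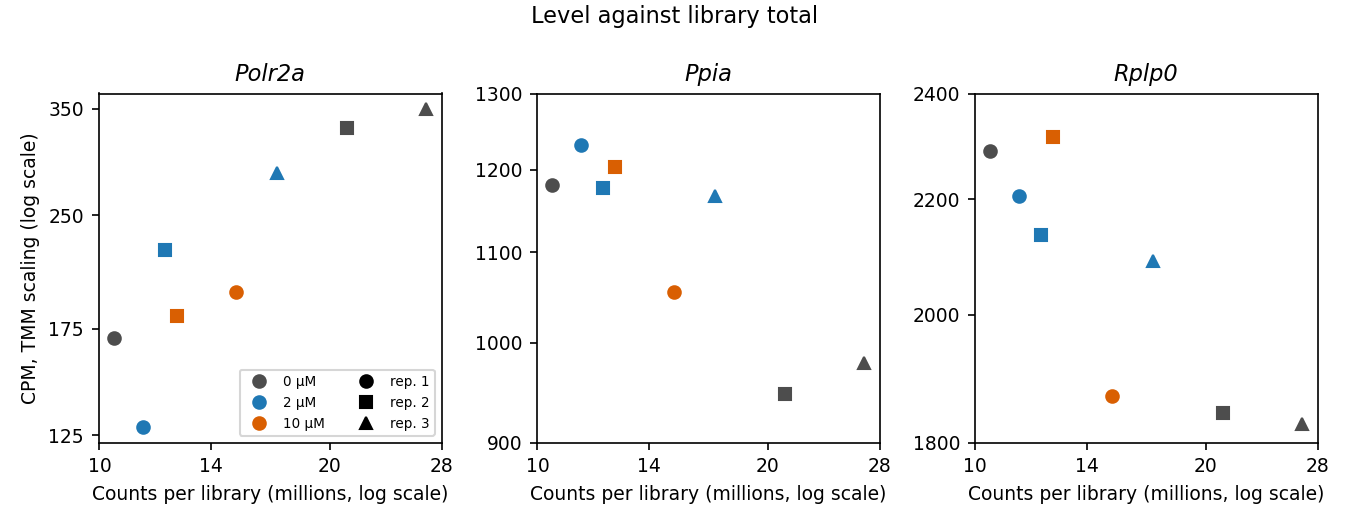
Level in CPM with TMM scaling against the total count of the library, both on log axes, for Polr2a, Ppia and Rplp0. Points are the 8 libraries, coloured by dose and shaped by replicate number; Polr2a is highest and Ppia and Rplp0 are low in the 2 deepest libraries, replicates 2 and 3 at 0 µM.

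Among the principal transcripts used here, that of Polr2a was the longest, with 6740 bases against 1170 to 2687 bases in the others, although Tbp has another of 12794 bases. In the first 0 µM and the first 2 µM libraries its log2 CPM deviated from the mean of its dose by −0.665 and −0.654, and these are the libraries in which long transcripts as a class were low. The median deviation of the fifth of genes with the longest transcripts (over 4869 bases) was −0.0844 and −0.0619 in these libraries. Whether transcript length played a part in the level of Polr2a was not tested. Without both libraries, a choice made after the data were seen, the change of Polr2a at 10 µM was −0.85 (standard error 0.102, adjusted p = 0.00033 in edgeR), and it was then called, as were 4.64% of the genes tested. At 2 µM its change was −0.41 (0.102, adjusted p = 0.0384) over those 6 libraries, and between 10 and 2 µM it was −0.44 (0.103, adjusted p = 0.0110). In these comparisons 0 of the 8 genes were called (0.515% and 5.1% of the genes tested). Its M was 0.411 over the 6 libraries, still the highest of the 8, while M of the other genes was between 0.186 and 0.253.

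The choice of reference moved the change found for the mitochondrial mRNAs that the study measured by PCR. Set against the geometric mean of the 8 genes, CYTB, the mRNA of cytochrome b, differed from 0 µM by −1.997 on the log2 scale (pooled SD 0.202) at 2 µM and by −1.81 (0.256) at 10 µM. With a single gene as the reference the value at 2 µM ran from −2.18 with Ppia to −1.55 with Polr2a, and at 10 µM from −2.05 with Ppia to −1.41 with Polr2a. With B2m it was −1.88 and −1.92. The sign of the change was thus kept with every reference, while the range over the 8 genes was 0.625 and 0.638, a factor of 1.54 and 1.56. Without Polr2a among the references the range was 0.413 and 0.503.

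ND1, a subunit of complex I, had a small change at 2 µM, and there the reference mattered more. Its change was −0.53 (pooled SD 0.178) against the geometric mean of the 8 genes, and ran from −0.71 with Ppia to −0.30 with Ywhaz and −0.09 with Polr2a, where the pooled SD was 0.633. At 10 µM it was −1.80 (0.268) against the geometric mean and between −2.04 and −1.40 with single genes. The range over references is the same for CYTB and ND1 by construction, since it holds only the references' own changes. Leaving out the first 0 µM library widened it to 1.06 at 2 µM and to 1.07 at 10 µM, and leaving out the first 2 µM library narrowed that at 2 µM to 0.319. Leaving out replicate 3 at 0 µM or replicate 3 at 2 µM gave 0.418 and 0.891 at 2 µM.

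**Figure D5:**
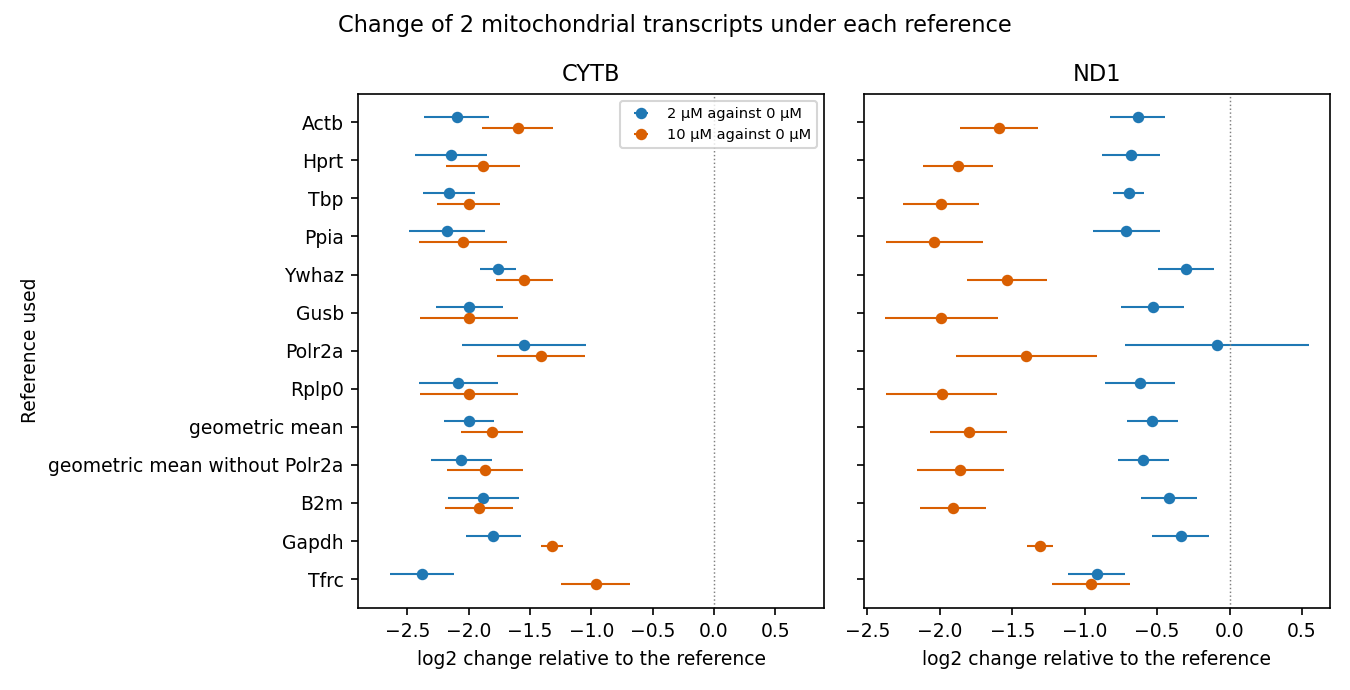
Change of CYTB (left) and ND1 (right) on the log2 scale at 2 µM (blue) and 10 µM (orange) against 0 µM, when set against each reference within a library; lines are the pooled SD over libraries. All CYTB values lie below 0, from −2.38 to −0.97, and ND1 at 2 µM comes closest to 0 with Polr2a as the reference.

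Other genes of the same families moved in both directions, and most did not pass. Of the 7 genes of the 14-3-3 family all were tested and 0 were called in any comparison, with a median log2 fold change of −0.17 at 2 µM and −0.32 at 10 µM against −0.01 and 0.02 over all tested genes. Ywhah was the lowest at 10 µM, at −0.41 (standard error 0.118, adjusted p = 0.0382). Its median CV was 15.7%, and its members had an interval within 1.5-fold in 4 of 7 cases at 2 µM, 0 of 7 at 10 µM and 3 of 7 between 10 and 2 µM (60.3%, 50.3% and 44.8% of all tested genes). Among cyclophilins, the isomerases related to Ppia, the interval lay within 1.5-fold for 8 of 8 at each dose and for 5 of 8 between 10 and 2 µM. It did so for 3 of 3 proteins of the ribosomal P stalk, to which Rplp0 belongs, in all 3 comparisons. None of the 11 cyclophilin and stalk genes was called in any comparison.

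Tbp and Polr2a each belong to a complex of transcription. Of the 14 subunits of TFIID, the complex that places Tbp on promoters, 0 were called, and the interval lay within 1.5-fold for 14 at 2 µM and 12 at 10 µM. Of the 12 subunits of RNA polymerase II, 11 had such an interval at 2 µM, where the exception was Polr2a, and 6 did both at 10 µM and between 10 and 2 µM, near the share of all tested genes. Polr2d, the subunit that pairs with Polr2g in a stalk on the enzyme, was the only one called by edgeR, between 10 and 2 µM, with 17.4 ± 1.52 (SD, n = 2) against 26.8 ± 3.47 CPM (n = 3) and −0.62 as its log2 fold change (standard error 0.120, adjusted p = 0.0045). It lost this call with total-count scaling, at −0.48 (adjusted p = 0.0131). DESeq2 also called Polr2d at 10 µM against 0 µM (−0.61, adjusted p = 0.00127) and Polr2l, a small subunit, between 10 and 2 µM (−0.61, adjusted p = 0.0064).

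Among actins, 5 of 6 genes were tested and 0 were called by edgeR. Acta2, the smooth muscle actin that fibroblasts also make, stood at 227 ± 11.0 CPM at 2 µM against 154 ± 9.41 at 0 µM (log2 fold change 0.56, standard error 0.0724, adjusted p = 0.0025) and 153 ± 6.58 at 10 µM, so it passed the threshold on p at 2 µM and fell short on size. It was called at 2 µM with total-count scaling (0.64, adjusted p = 0.0018), and DESeq2 called it between 10 and 2 µM (−0.60, adjusted p = 2.14e-07). Actg1, the cytoplasmic gamma-actin, stood at 694 ± 85.5, 737 ± 85.7 and 593 ± 114 CPM at 0, 2 and 10 µM, with log2 fold changes of 0.09 (0.125) and −0.23 (0.141). Of the 6 purine salvage genes, the group of Hprt, 0 were called by edgeR in any comparison. An interval within 1.5-fold was found for 4 at 2 µM, 5 at 10 µM and 4 between 10 and 2 µM.

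Lysosomal hydrolases, the group of Gusb, held the genes that were called higher. Of 14 tested, 0 were called at 2 µM and 1 at 10 µM against 0 µM. Idua, the alpha-L-iduronidase, rose from 8.07 ± 0.0926 CPM at 0 µM to 13.6 ± 0.925 at 10 µM, by 0.75 on the log2 scale (standard error 0.113, adjusted p = 0.0016). Between 10 and 2 µM, Idua was higher by 0.93 (0.117, adjusted p = 0.0004) and Gla, the alpha-galactosidase, by 0.60 (0.111, adjusted p = 0.0035), where DESeq2 gave 0.56 and no call. Gusb itself was at 0.05 in that comparison (standard error 0.130, adjusted p = 0.815), with an interval of −0.28 to 0.39.

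Among 24 other classical references, 0 were called at 2 µM and 2 at 10 µM, both lower. Gapdh, a glycolytic enzyme that the study names both as a loading control and as a reference for mature mitochondrial transcripts, stood at 978, 1037 and 1053 CPM at 0 µM, 923, 913 and 897 at 2 µM, with 753 and 602 at 10 µM. The doses of Gapdh did not overlap with TMM scaling, whereas its 0 and 2 µM libraries overlapped with total counts. At 10 µM it fell by 0.59 on the log2 scale with TMM (standard error 0.0985, adjusted p = 0.0030 in edgeR). It lost the call with total-count scaling, at −0.38 (adjusted p = 0.0151). The study's legend, which is for its PCR, states that RHPS4 did not affect GAPDH levels. In these libraries the level of Gapdh was lower at 10 µM with both scalings. Counts of uniquely mapped fragments are another measure than PCR, and Gapdh shares most of its sequence with other genes, so the 2 are not directly comparable. Tfrc, the transferrin receptor, which takes up iron, stood at 336, 291 and 312 CPM at 0 µM, 421, 411 and 418 at 2 µM, with 156 and 166 at 10 µM. It was high at 2 µM (log2 fold change 0.41, standard error 0.0713, adjusted p = 0.0122, past neither threshold), and at 10 µM it fell by 0.96 (0.0825, adjusted p = 3.31e-05).

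B2m, the reference named in the study's methods, was not called at either dose. Its level was 711, 597 and 594 CPM at 0 µM, 638, 565 and 587 at 2 µM, with 653 and 609.5 at 10 µM, and all 3 doses overlapped. Its log2 fold change was −0.09 (standard error 0.0875, interval −0.31 to 0.14) at 2 µM and −0.01 (0.0978, interval −0.26 to 0.25) at 10 µM, and with total-count scaling 0.21 at 10 µM (adjusted p = 0.0953). When B2m, Gapdh and Tfrc were added to the 8 genes, M was 0.273 for B2m, 0.327 for Gapdh, 0.545 for Tfrc and 0.571 for Polr2a, and Hprt had the lowest at 0.249. Actb, Ppia, Rplp0 and Tbp also had a lower M than B2m, between 0.258 and 0.261. With Gapdh as the reference, the change of CYTB at 10 µM was −1.32 instead of −1.81 with the geometric mean, and with Tfrc it was −0.97.

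Of 11 references proposed from surveys of RNA-Seq data, 1 was called. Gpi1, a glycolytic isomerase, fell from 221 ± 5.36 CPM at 0 µM to 144 ± 9.11 at 10 µM, by 0.61 on the log2 scale (standard error 0.0738, adjusted p = 0.0004), and lost the call with total-count scaling (−0.40, adjusted p = 0.0030), where its size was under 1.5-fold. The median CV of these 11 genes was 10.2%, and that of the 24 classical references 9.91%. Of the fibroblast markers, Pdgfrb was called lower at 10 µM (−0.60, standard error 0.0684, adjusted p = 0.0002), a call not made with total-count scaling (−0.39), and 0 of the 8 tested markers of the other cell types were called.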

How the data were processed

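Gene counts from 8 libraries of mouse embryonic fibroblasts were analysed. The authors trimmed the reads (Trim Galore, cutadapt), aligned them to mm10 with STAR 2.5.2a and deposited, per gene and library, raw counts of uniquely mapped fragments from featureCounts. The gene annotation they used is not given in the sources used here.

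Groups followed the dose in the labels. The main test was edgeR 4.0.16 (R 4.3.3; TMM, filterByExpr, glmQLFit, glmQLFTest, Benjamini-Hochberg), with dose as the only factor over all 8 libraries. The 95% intervals used the 5 residual degrees of freedom (t quantile 2.57). M and ratios used 0.5 added to each count. Calls used an adjusted p under 0.01 and a fold over 1.5, after the study's methods. Exact permutation tests were two-sided. Scripts were tested on simulated counts. Lengths and positions came from GENCODE for GRCm38.

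Alternatives were RLE and nuclear-only TMM factors, raw totals, DESeq2 1.42.0, other filters and thresholds, only the groups compared, a replicate block, 5 added to each count, and each library left out. The 8 genes and the lists were chosen with earlier results of these data known. Beyond the 8 genes, those named are the list members called at any dose, B2m, Gapdh, Actg1, the gene closest to each of the 8 in pattern, the 5 of lowest CV, CYTB and ND1, and some genes that this rule gives are not reported here. Ywhah, Acta2 and others named for comparison were chosen after their values were seen. No library pair agreed within sampling noise (chi-square per degree of freedom at least 3.62). The floor of 3 counts covers counting error only, because reads copied by PCR do not count separate molecules.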

Additional observations from a re-analysis of the deposited data

Results flagged for a closer look

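For the following genes on the comparison lists the 2 doses differed from each other in a direct test between 10 and 2 µM (edgeR's quasi-likelihood test, adjusted over all tested genes). Tfrc differed by −1.37 (standard error 0.0838), being higher than at 0 µM in all 3 libraries at 2 µM and lower in both at 10 µM. Polr2d differed by −0.62. Gla and Idua differed by 0.60 and 0.93. None of the 8 reference genes was called in that comparison, in which 5.51% of all tested genes were.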

How the results depend on the processing

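The median CV of the 8 genes was between 9.37% and 12.3% under all settings tried, and 0 of the 8 genes were called in every leave-one-out fit. The count called was 1 at 10 µM against 0 µM without the first 0 and 2 µM replicates (Polr2a, −0.85) and 1 between 10 and 2 µM at an adjusted p under 0.05 with no minimum fold (Actb). Genes called numbered 1991, 3346 and 595 at that threshold for 10 against 0, 10 against 2 and 2 against 0 µM; 904 at 10 µM with raw totals and 685 without both first replicates; and 109 at 2 µM with DESeq2. Leaving out 1 library gave 235 to 633, 444 to 884 and 6 to 144 (at 10 µM 235 without 10 µM replicate 2, 266 and 293 without 0 µM replicates 2 and 3; between doses 444 without 10 µM replicate 2 and 515 without 2 µM replicate 2; at 2 µM 144, 19 and 15 without 0 µM replicates 1, 2 and 3, and 24, 6 and 29 without those at 2 µM), and 3 to 6 of the 8 genes within 1.5-fold between 10 and 2 µM. The highest M was 0.411 without both first replicates, 0.262 without Polr2a and 0.466 to 0.606 with 1 library left out. The range over references was 1.07 at 10 µM without both, 0.447 to 1.07 at 10 µM and 0.319 to 1.06 at 2 µM with 1 left out. Signs turned for Hprt at 10 µM (0.18 with raw totals, 0.054 without both), for Ppia, Rplp0 and Tbp between 10 and 2 µM with raw totals (0.057, 0.10, 0.017) and, with 1 library left out, for Gusb (−0.12 to 0.21 at 10 µM, −0.071 to 0.12 at 2 µM, −0.16 to 0.17 between), Hprt (−0.15 to 0.034) at 10 µM, Polr2a (−0.43 to 0.080) between, Ppia (−0.00094 to 0.21) at 10 µM and Rplp0 (−0.11 to 0.19 at 10 µM, −0.24 to 0.071 between). The causes were not tested. It is not known whether replicate numbers pair the samples. Deviations of same-numbered 0 and 2 µM libraries correlated at 0.199, 0.0845 and 0.161, all above those of differently numbered ones (−0.154 to 0.0584). Same-numbered pairs with a 10 µM library gave −0.145 to −0.0212. With the replicate number as a block 322, 735 and 54 genes were called, 0 of the 8 in each comparison, and Polr2a between 10 and 2 µM turned to 0.15. Where a 10 µM library was left out, the lone library is assumed to vary like the other groups. With 2 libraries at 10 µM the intervals there are the widest. All 8 genes were far above the floor of 3 counts in every library, although Polr2a, Ppia and Rplp0 were related to the library total over the 8 libraries.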

Other observations

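Among the 4318 tested genes with a mean of at least 50 CPM, the 5 with the lowest CV over 8 libraries (TMM scaling) were Slc30a7, a zinc transporter (0.709%, mean 91.5 CPM, from 90.7 to 92.6), Hp1bp3 (1.70%, 198 CPM), Csnk1a1, a casein kinase (1.85%, 399 CPM), Vps33a, a vesicle fusion protein (2.05%, 74.7 CPM), and Arih1, a ubiquitin ligase (2.11%, 209 CPM). They were picked as the lowest of many from the same libraries, and their CV with total-count scaling was between 5.95% and 6.998%. The 8 reference genes, chosen by name, had 10.1% to 31.4% with that scaling. Setting the 5 genes beside them is not a test, because the 5 were chosen for a low CV in these libraries.

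The gene whose log2 CPM over the 8 libraries was closest to that of a reference, by Pearson's r as a description, was Sdc4 for Actb (0.998), Proser1 for Polr2a (0.991), Snrpb2 for Hprt (0.989), Rps25 for Ppia (0.988), Stard4 for Ywhaz (0.981), Suclg1 for Gusb (0.967) and Tmem5 for Tbp (0.961). Each is the highest of 14296 genes, and the points share their dose, library and depth.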
